A study of Mus musculus with 24 samples.

Results

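MITF, TFEB and TFE3 are related transcription factors that bind the same short E-box sequences. MITF is the lineage factor of melanocytes and drives pigment genes, while TFEB and TFE3 are best known for switching on genes of lysosomes and autophagy when nutrients run short. The comparison described here sets mouse melanoma cells in which MITF is the remaining one of these 3 factors against cells that lack MITF and keep TFEB and TFE3. Its members are 6 of the 24 libraries of the series, namely the 3 libraries labelled B16F10-luc2_Tfeb_Tfe3_dKO, called the TFEB/TFE3 DKO below, and the 3 labelled B16F10-luc2_Mitf_sKO, called the MITF KO. They were chosen by genotype alone, and all 12010 genes of the deposited table were compared.

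All cells were B16-F10 mouse melanoma cells with a luciferase reporter, grown without treatment in DMEM with serum. The TFEB/TFE3 DKO was made from the parental cells with Cas9 protein and guides against Tfeb and Tfe3, and its Mitf gene was left as in the parental cells. The MITF KO carries a frameshift in Mitf, with Tfeb and Tfe3 intact, and a faint band in the study's protein blot may be a shortened MITF protein. Each edited line came from 1 clone, so that the genotype and the history of the clone cannot be told apart. The study deposited 6 further lines, with 3 libraries each: the parental cells, the TFE3 KO, the TFEB KO, and 3 lines made from the MITF KO, namely the TKO, which lacks all 3 factors, the MITF/TFEB DKO and the MITF/TFE3 DKO. Nothing in the labels says that the 3 libraries of a line are separate cultures, so that p-values measure the spread between libraries, which may be technical.

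Poly(A) RNA was read at the 3′ end of each transcript, and values are CPM, the share of a library's reads on a fixed common scale, adjusted by edgeR's TMM factors. The 6 libraries held 18300902 to 25469391 reads on genes. Fold changes are differences of log2(CPM + 1), which understate the change of genes with few reads, tested with limma over all 24 libraries, with p-values adjusted by the Benjamini-Hochberg method over all genes. Calls needed at least a 2-fold difference and an unadjusted p under 0.05. Replicate 2 of the TFEB/TFE3 DKO stood apart, with a chi-square of 39.61 and 42.67 per degree of freedom against replicates 1 and 3, which differed from each other by 7.67. Replicate 2 of the MITF KO also stood apart, with 14.62 and 15.98 against replicates 1 and 3, which differed from each other by 5.97. The melanocyte lineage markers Sox10, Mitf, Pmel, Mlana, Tyr, Tyrp1 and Dct were all read in both lines, with a summed level of 29329 to 31201 CPM in the TFEB/TFE3 DKO and 38412 to 40321 CPM in the MITF KO. Of 17 markers of other cell types 6 were in the table, with a summed level of 41.4 to 46.2 CPM and 20.4 to 37.4 CPM.

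The targeted genes were read first. Tfe3 stood at 14.4, 8.03 and 11.4 CPM in the libraries of the TFEB/TFE3 DKO and at 51.3, 54.2 and 49.5 CPM in the MITF KO, a log2 fold change of -2.13 (SE 0.16, adjusted p = 1.7e-10, limma). Tfeb stood at 5.27, 4.93 and 5.15 CPM against 15.5, 22.7 and 16.8 CPM, a log2 fold change of -1.64 (SE 0.18, adjusted p = 1.4e-07). Neither gene overlapped between the lines. In the parental cells Tfe3 averaged 37.1 ± 1.56 CPM (SD, n = 3) and Tfeb 8.80 ± 1.34 CPM. Mitf mRNA was read at 876 ± 37.9 CPM in the TFEB/TFE3 DKO and at 1397 ± 63.3 CPM in the MITF KO (log2 fold change -0.67, adjusted p = 5.4e-06), so that its level did not check the label, as a frameshift can leave the mRNA in place. The fourth family member, Tfec, was not among the genes analysed here.

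Of the 12010 genes, 396 (3.30%) were called higher in the TFEB/TFE3 DKO than in the MITF KO and 369 (3.07%) were called lower. All 765 had an adjusted p under 0.05. In all of them the 3 libraries of one line lay beyond the 3 of the other. The genes were chosen for their difference in these same libraries, so that this separation adds no support. At an adjusted p under 0.05 with no limit on the fold, 1928 genes (16.1%) were higher and 2293 (19.1%) lower. The higher side held the larger changes. At least a 16-fold change on the log2(CPM + 1) scale was reached by 40 of the genes called higher and by 4 of those called lower. The log2 fold change of all genes had a median of -0.0043.

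Of the gene lists examined, the interferon response held the largest difference between the cells that kept MITF and those that kept TFEB and TFE3. Type I interferons are secreted signals that bind the receptor pair IFNAR1 and IFNAR2, whose kinases JAK1 and TYK2 activate a transcription factor complex that includes STAT2 and IRF9. That complex binds promoters at an interferon-stimulated response element and switches on sensors of viral RNA, antiviral effectors and genes of antigen presentation. Of 75 measured genes on a list of interferon-stimulated genes and pathway members, 59 (78.7%) were called higher in the TFEB/TFE3 DKO, 0 were called lower and 16 were not called, beside 3.30% and 3.07% of all genes. The median log2 fold change of the list was 3.37, or 3.45 with its members at 0 reads in the MITF KO set to their bound, and the 59 genes lay on 17 chromosomes. In such RNA from many cells, fewer cells with a gene switched on and less RNA per cell cannot be told apart.

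The short promoter stretches below are shown because they hold the response element of several genes that differed most. They were read from the mouse genome GRCm39, the build mm39 of the files, upstream of the annotated start (GENCODE vM39) and in the direction of the gene, and the capitals mark the core, 2 copies of GAAA with any 2 bases between them, or its reverse complement.
Usp18, chr6:121222796-121222825: ggatctagggGAAAACGAAAgcttggcggt
Isg15, chr4:156285322-156285351: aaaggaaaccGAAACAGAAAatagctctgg
Rtp4, chr16:23428617-23428645: ccgggaaatgGAAACTGAAAgaaccggga
Ifit1, chr19:34618194-34618223: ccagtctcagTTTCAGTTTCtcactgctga
Oas2, chr5:120887970-120887999: cacacttgagTTTCGATTTCctaggttcct
Ifi203, chr1:173770074-173770103: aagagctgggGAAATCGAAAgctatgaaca
Mndal, chr1:173707770-173707799: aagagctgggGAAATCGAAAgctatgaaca
The stretches of Usp18, Rtp4 and Ifit1 lie on the plus strand and the others on the minus strand. Of the 58 called interferon genes with a promoter from 250 bases before to 50 bases after the start, 31 (53.4%) held the core on either strand, against 398 of the 11659 promoters of all genes (3.41%), 22 of the 328 other genes called higher (6.71%) and 4 of the 363 genes called lower (1.10%). The list was made of interferon targets, so that this share describes the list and not the difference between the lines.

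Genes of the signalling chain itself were called in part. Irf9, the DNA-binding subunit of the complex, stood at 122, 104 and 126 CPM in the libraries of the TFEB/TFE3 DKO and at 5.60, 5.54 and 4.47 CPM in the MITF KO, a log2 fold change of 4.26 (SE 0.11, adjusted p = 4.9e-19, limma). The 2 lines were far apart for this gene, with no library near the other line. Stat2 differed by 1.89 and Irf1, an interferon-induced activator, by 1.06 on the log2 scale. Irf1 came to 0.98 without replicate 3 of the TFEB/TFE3 DKO. The receptor genes Ifnar1 (22.7 ± 3.48 and 18.6 ± 1.06 CPM, adjusted p = 0.12) and Ifnar2 (47.2 ± 2.06 and 41.0 ± 2.43 CPM, adjusted p = 0.069), the kinase genes Jak2 and Tyk2, and Irf3, which induces the interferon gene itself, did not pass the test. Irf7, a further inducer of interferon genes, was read at 0.651 ± 0.396 CPM and had 0 reads in the MITF KO, and it was not called (0.70, adjusted p = 0.0029). Jak1 was lower by 0.42 on the log2 scale (adjusted p = 0.0017), under the 2-fold limit.

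Sensors of foreign nucleic acid differed by unequal amounts. The RNA sensors Ddx58, which encodes RIG-I, and Ifih1, which encodes MDA5, differed by 4.42 and 4.31 on the log2 scale, and Dhx58 by 2.32. Ddx58 stood at 210, 212 and 231 CPM against 9.74, 7.59 and 10.5 CPM. The DNA sensor Cgas and its partner Sting1 were higher by 0.81 (adjusted p = 8.3e-07) and 0.67 (adjusted p = 0.0013), under 2-fold, and Mavs, the mitochondrial adaptor of the RNA sensors, did not pass (0.30, adjusted p = 0.052). Zbp1, a sensor that can trigger cell death, was read at 2.78 ± 0.302 CPM in the TFEB/TFE3 DKO and had 0 reads in the MITF KO. Its call was lost when 5 CPM were added in place of 1, as was that of Irf1.

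Several antiviral effectors were among the genes with large folds. Isg15, a ubiquitin-like modifier, stood at 268, 480 and 268 CPM in the libraries of the TFEB/TFE3 DKO and at 6.07, 5.10 and 4.74 CPM in the MITF KO, 63.8-fold apart in the means (log2 fold change 5.70, SE 0.26, adjusted p = 2.1e-14). Usp18, which removes ISG15 and damps the receptor, stood at 126, 114 and 128 CPM against 0.471, 0.602 and 0.981 CPM (log2 fold change 6.20, SE 0.12, adjusted p = 1.3e-21). Ifit3, a member of a family that binds viral RNA, stood at 288, 292 and 336 CPM against 8.85, 8.84 and 9.21 CPM (log2 fold change 4.94). Replicate 2 of the TFEB/TFE3 DKO was the highest for Isg15 and the lowest for Usp18. Rsad2, which makes an RNA chain terminator, Ifit1, the virus tether Bst2 and the membrane protein Ifitm3 differed by 4.80, 4.71, 4.71 and 4.30. Rtp4, Gbp7 and Igtp, the last pair GTPases induced by interferon, differed by 5.98, 5.36 and 5.31, though Igtp shares its 3′ end with Irgm2 on the same strand. The kinase Eif2ak2 and the RNA editor Adar showed smaller differences, of 1.66 and 1.70. The secreted chemokines Cxcl10 and Ccl5 were higher by 4.41 and 1.70.

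Apol9a and Apol9b, a pair of nearly identical apolipoprotein genes on chromosome 15 whose reads may be split between them, differed most of all genes. Apol9b stood at 272, 214 and 288 CPM in the libraries of the TFEB/TFE3 DKO and at 0, 0.482 and 0.163 CPM in the MITF KO (log2 fold change 7.74, SE 0.16, adjusted p = 2.9e-21). Apol9a stood at 195, 141 and 191 CPM against 3, 1 and 2 reads. Ifi203 and Mndal, neighbouring genes of the interferon-inducible HIN-200 family with the same 30 bases around the response element, stood at 164 ± 9.46 and 135 ± 13.1 CPM against 0.583 ± 0.226 and 0.559 ± 0.523 CPM. Their log2 fold changes were 6.71 and 6.51, and another gene overlaps the 3′ end of Mndal on the same strand. In all, 11 genes with a mean of at least 10 CPM in the TFEB/TFE3 DKO had at most 3 reads in every MITF KO library. Besides Apol9a these were Ifi44, Ifi204, Oas1b, Oas2, Oasl1, Oasl2, Ddx60, Trim34a, Gm4951 and Nr5a1. Against a floor of 3 reads per library, Ifi44 (55.2 ± 5.71 CPM) was at least 390-fold higher, Ifi204 at least 181-fold, Oasl1 at least 176-fold and Ddx60 at least 158-fold. Nr5a1, a nuclear receptor of steroid-forming tissue and no interferon gene, was read at 14.6 ± 1.98 CPM, at least 103-fold higher. Ifit2 and Ifitm2 lie beside Ifit1 and Ifitm3 and were not called: Ifit2 differed by 0.15 on the log2 scale (adjusted p = 0.49) and Ifitm2 at 78.9 ± 10.4 and 73.4 ± 6.22 CPM (adjusted p = 0.48).

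**Figure D1:**
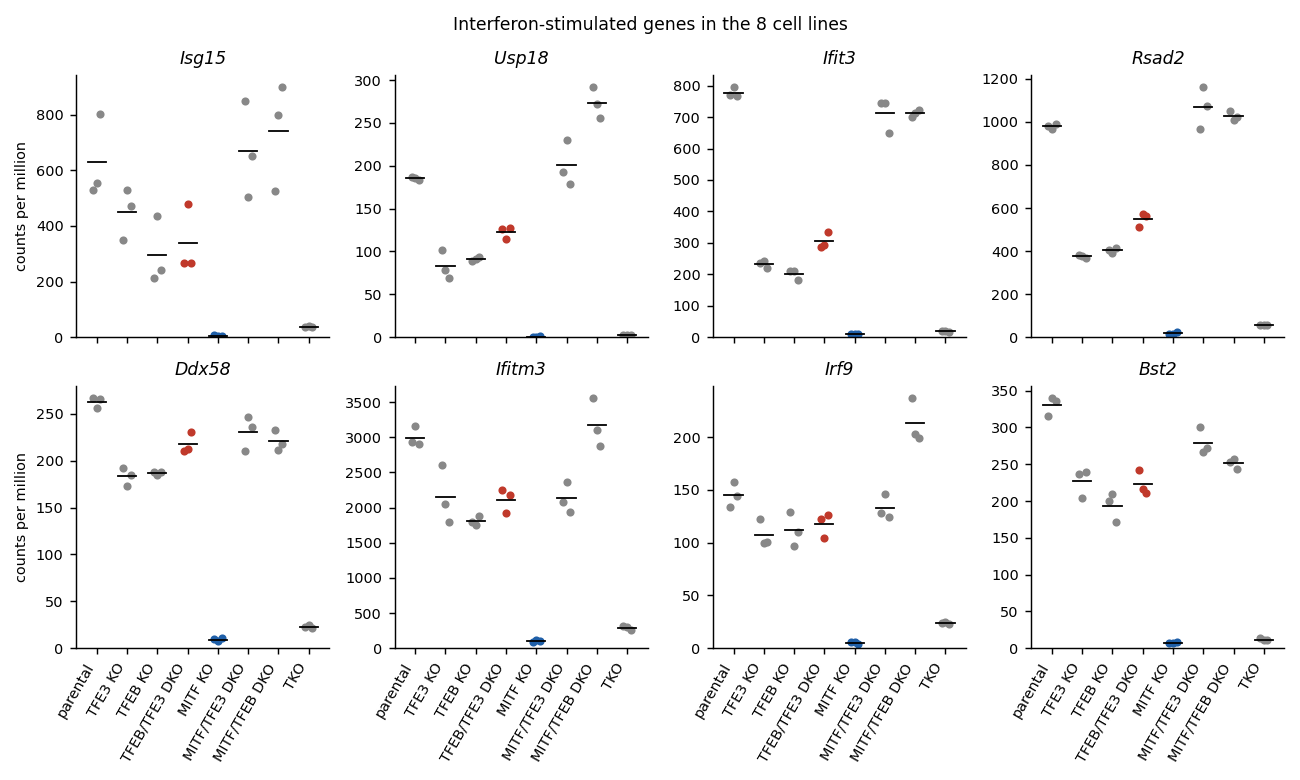
CPM of 8 interferon-pathway genes in the 8 cell lines, with each point 1 library and each bar the mean of 3; the TFEB/TFE3 DKO is red and the MITF KO blue. The MITF KO is the lowest line for all 8 genes and the TKO the next lowest, while Irf9 averages 133 CPM in the MITF/TFE3 DKO and 213 CPM in the MITF/TFEB DKO, which lack MITF too.

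The levels in the other lines placed this difference on the side of the MITF KO. The summed level of the 75 genes was 8821 to 9142 CPM in the TFEB/TFE3 DKO, 12145 to 12514 CPM in the parental cells and 1172 to 1190 CPM in the MITF KO. All 59 called genes were at least 2-fold under their parental level in the MITF KO, with a median log2 difference of -4.54, against 10 of 59 and a median of -0.59 in the TFEB/TFE3 DKO. The low level was not shared by all lines without MITF. The sum was 10520 to 11521 CPM in the MITF/TFE3 DKO and 14069 to 14450 CPM in the MITF/TFEB DKO, both made from the MITF KO, and the TKO stood at 2088 to 2197 CPM. Irf9 averaged 5.20 CPM in the MITF KO, 133 CPM without TFE3 as well, 213 CPM without TFEB as well and 23.9 CPM in the TKO. Genotype and clone cannot be told apart in these lines.

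Antigen presentation on class I molecules, which interferon also raises, was higher in the TFEB/TFE3 DKO too. Of 18 measured genes 7 (38.9%) were called higher and 0 lower, beside 3.30% and 3.07% of all genes, with a median log2 fold change of 0.89. B2m, the light chain of every class I molecule, stood at 3771, 3099 and 3627 CPM against 1075, 1072 and 1020 CPM in the MITF KO (log2 fold change 1.72, SE 0.13, adjusted p = 1.4e-10). The heavy chain gene H2-D1 stood at 119 ± 24.3 against 19.6 ± 4.27 CPM (log2 fold change 2.54, SE 0.18, adjusted p = 6.5e-11). Neither gene overlapped between the lines. Tap1, which carries peptides into the endoplasmic reticulum, was read at 15.4 ± 2.44 and 0.0874 ± 0.0635 CPM and differed by 3.90. Nlrc5, the activator of class I genes, stood at 10.5 ± 0.807 against 0.451 ± 0.156 CPM, and the peptide loader Tapbp differed by 1.73. The immunoproteasome subunits Psmb9 and Psmb10 differed by 1.64 and 1.03, and neither call held when 5 CPM were added. Psmb10 also came to 0.97 without replicate 1 of the TFEB/TFE3 DKO and to 0.96 without replicate 3 of the MITF KO. The other heavy chain, H2-K1, had no reads in either line.

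Genes of growth factor signalling through the MAPK pathway were also called. Receptor tyrosine kinases act through RAS, RAF and ERK, and ERK output can be read from genes such as the ETV factors and the phosphatase Dusp6, which feeds back on ERK. Of 30 measured genes 7 (23.3%) were called higher in the TFEB/TFE3 DKO and 2 (6.67%) lower, beside 3.30% and 3.07% of all genes, and 12 (40.0%) were higher at an adjusted p under 0.05 beside 16.1% of all genes. Met, the receptor of hepatocyte growth factor and a gene that MITF is known to activate, stood at 509, 411 and 471 CPM against 69.4, 79.4 and 64.7 CPM (log2 fold change 2.69, SE 0.14, adjusted p = 2.4e-13). The parental cells lay between, at 203 ± 10.7 CPM. The ETV factors were far higher: Etv5 stood at 13.1, 8.90 and 15.1 CPM against 0.330, 1.12 and 1.31 CPM (log2 fold change 2.81), Etv4 at 7.39 ± 2.75 against 0.103 ± 0.0954 CPM (2.87) and Etv1 at 14.9 ± 3.09 against 2.52 ± 0.221 CPM (2.16). Parental levels of the 3 genes were 15.9, 8.38 and 12.2 CPM. Dusp6 stood at 75.4, 143 and 86.1 CPM against 29.0 ± 7.49 CPM (log2 fold change 1.75), with replicate 2 of the TFEB/TFE3 DKO the highest. The early response gene Ier3 and the receptor Axl differed by 1.28 and 1.25. The receptors Erbb3 and Fgfr3 were lower by 1.11 and 1.01 on the log2 scale. Neither call held with 5 CPM added, Erbb3 came to -0.89 without replicate 3 of the TFEB/TFE3 DKO, and Fgfr3 came to between -0.95 and -0.91 without replicate 1 or 3 of the TFEB/TFE3 DKO or replicate 3 of the MITF KO. Etv1 lies in a stretch of chromosome 12 where the median log2 fold change of 100 neighbouring genes was 0.53 above that of all genes.

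Most pigment genes were not called between the cells with MITF alone and the cells without MITF. Of 46 measured pigment cell genes 6 were called higher in the TFEB/TFE3 DKO and 2 lower, with a median log2 fold change of 0.06. Of all genes 3.30% were called higher and 3.07% lower, so that the list held a larger share of genes called higher. At an adjusted p under 0.05 13 (28.3%) were higher and 9 (19.6%) lower, beside 16.1% and 19.1% of all genes. The enzyme Tyr, which starts melanin synthesis, stood at 154, 147 and 124 CPM against 102, 118 and 113 CPM (log2 fold change 0.34, SE 0.15, adjusted p = 0.076). Pmel, the fibre protein of the melanosome, stood at 3756, 4711 and 3659 CPM against 3487, 3171 and 3921 CPM (log2 fold change 0.19, adjusted p = 0.19), with overlap between the lines. Slc45a2, a melanosome transporter, differed by 0.20 (adjusted p = 0.078), the melanocortin receptor Mc1r by 0.19 (adjusted p = 0.098) and the channel Trpm1 by 0.02 (adjusted p = 0.94). Mlana was higher by 0.52 (adjusted p = 0.00051), while the later enzymes of melanin synthesis Tyrp1 and Dct were lower by 0.54 (adjusted p = 0.00016) and 0.47 (adjusted p = 0.0023) in the TFEB/TFE3 DKO. Rab38, which sorts these enzymes, varied widely between libraries, at 348 ± 176 and 273 ± 59.2 CPM (adjusted p = 0.65).

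The members called higher were, besides Met, the granule transport gene Sytl2 (2.32), the cystine transporter Slc7a11 (1.26), the melanosome receptor Gpr143 (1.12), the lipid carrier Apoe (1.03) and the melanosome channel Oca2 (1.03). Of these, Gpr143 and Oca2 were under 2-fold with 5 CPM added, Apoe came to 0.95 without replicate 1 of the TFEB/TFE3 DKO and to 0.99 without replicate 3 of the MITF KO, and Oca2 to 0.90 and 0.96 without replicate 2 of the TFEB/TFE3 DKO or of the MITF KO. Mbp, a gene of myelin, was one of the 2 called lower. It stood at 70.3, 138 and 70.6 CPM against 880, 762 and 907 CPM (log2 fold change -3.25, SE 0.17, adjusted p = 3.7e-13). Among 22 measured genes of dedifferentiation and the neural crest, from which melanocytes arise, 3 (13.6%) were called higher and 3 (13.6%) lower. Of all genes 3.30% were called higher and 3.07% lower. Ngfr, a marker of the crest-like melanoma state, stood at 13.8 ± 2.65 and 3.96 ± 1.04 CPM (log2 fold change 1.58, adjusted p = 1.7e-06), and the growth factor receptor Gfra1 differed by 1.77. The adhesion gene L1cam was lower by 1.49 on the log2 scale. Gfra1 lost its call with 5 CPM added. The receptor Kit was near the floor, at 0.766 ± 0.214 CPM and at 3 reads or fewer in each MITF KO library.

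The other 6 lines hold a second comparison of MITF left against MITF lost that shares no library with the first. The parental cells, the TFE3 KO and the TFEB KO keep MITF, and the TKO, the MITF/TFEB DKO and the MITF/TFE3 DKO lack it, with 9 libraries on each side. The p-values of this comparison measure the spread between libraries of a line. Differences between the 3 lines of a side do not enter them. The 3 lines that lack MITF there were all made from the MITF KO, so that what is inherited from that clone and what follows from the loss of MITF cannot be told apart. In that comparison 367 genes (3.06%) were called higher with MITF and 694 (5.78%) lower. Of the 396 genes called higher in the TFEB/TFE3 DKO, 166 (41.9%) were called higher there too and 13 (3.28%) were called lower. Of the 369 called lower, 212 (57.5%) were called lower there and 6 (1.63%) higher. Over all genes the 2 differences had a Pearson correlation of 0.56, where genes are not independent replicates. Of the 765 called genes, 483 (63.1%) had an adjusted p under 0.05 for the difference between the 2 comparisons, beside 31.8% of all genes. The 765 genes were chosen for a large difference in the first comparison, so that a larger share was built in by the choice.

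**Figure D2:**
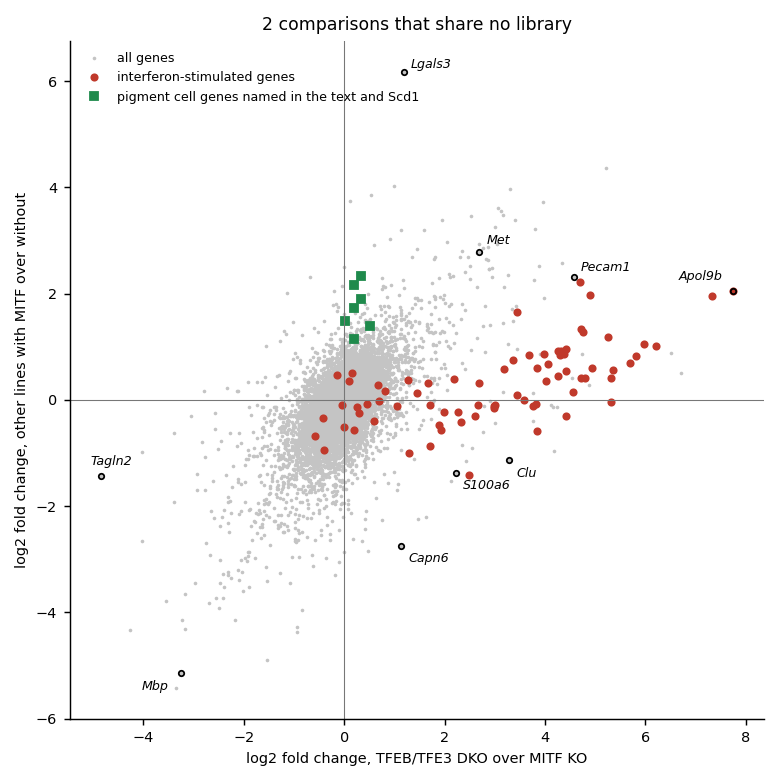
Each gene's log2 fold change between the TFEB/TFE3 DKO and the MITF KO (x axis) and between the other lines with and without MITF (y axis), both on log2(CPM + 1). Interferon-stimulated genes (red) spread far to the right at y values mostly between -1 and 1, Tyr, Pmel and Slc45a2 lie near 0 on the x axis and at 2.33, 1.73 and 2.17 on the y axis, and Met and Mbp lie far from 0 on both.

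Genes that moved the same way in both comparisons included Met (2.79 in the other lines, adjusted p = 1.2e-18), Etv4 (2.64), Etv1 (2.33), Etv5 (1.76), Ngfr (3.19) and Hk2 (1.63) on the higher side. Of the growth factor signalling genes, Dusp6 and Axl did not follow, at 0.32 and -0.54 in the other lines (adjusted p of the difference 2.4e-04 and 1.1e-09, limma). Dusp6 averaged 98.8, 83.8 and 108 CPM in the MITF/TFE3 DKO, the MITF/TFEB DKO and the TKO. On the lower side of both comparisons were Mbp (-5.15), Lhfpl4 (-4.34), S100b (-2.34), L1cam (-1.92) and Aldh1l2 (-1.97). The interferon genes did not keep their size. Isg15 differed by 0.70 in the other lines, Irf9 by 0.44 and Cxcl10 by -0.31, and the 2 comparisons differed from each other for Isg15 (adjusted p = 5.8e-12) and for Cxcl10 (adjusted p = 2.7e-14). Some pigment genes differed between the comparisons in the other sense. Tyr was higher with MITF in the other lines by 2.33 on the log2 scale, Slc45a2 by 2.17, Scd1, which desaturates fatty acids, by 1.89, Pmel by 1.73 and Trpm1 by 1.49, and each of these 5 effects differed from that in the TFEB/TFE3 DKO against the MITF KO (adjusted p between 3.5e-13 and 2.6e-05). Scd1 is not on the pigment list, and other members of that list did not follow: Oca2 differed by 1.03 in the TFEB/TFE3 DKO against the MITF KO and by -0.50 in the other lines (adjusted p of the difference 1.1e-05), Sytl2 by 2.32 and 1.52 (0.0025). By line, with the MITF KO first, then its offspring without TFE3, that without TFEB and the TKO, Slc45a2 averaged 350, 318, 60.7 and 48.2 CPM and Pmel 3526, 3565, 940 and 551 CPM, with the low levels in the last pair. Scd1 averaged 21.9, 6.79, 5.57 and 8.27 CPM in the same order, low in all but the MITF KO.

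**Figure D3:**
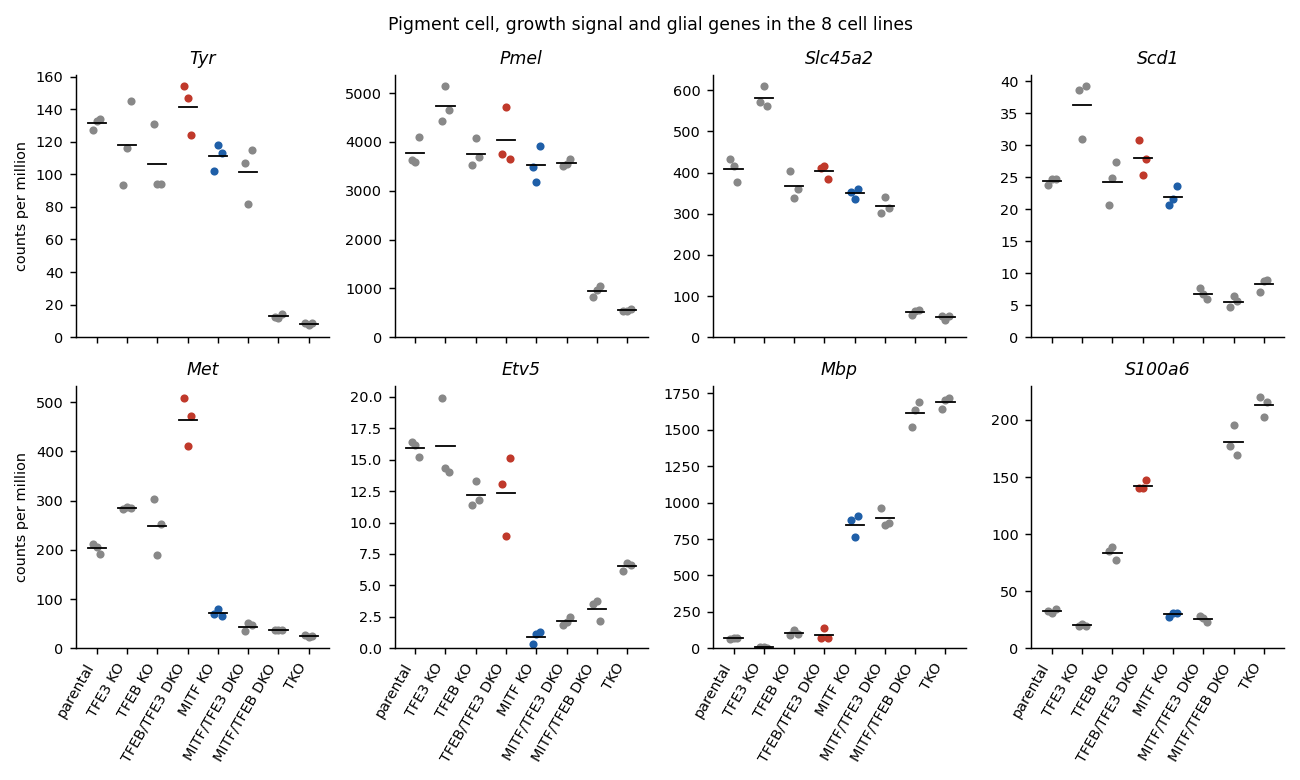
CPM of 8 genes in the 8 cell lines, with each point 1 library and each bar the mean of 3; the TFEB/TFE3 DKO is red and the MITF KO blue. Tyr, Pmel and Slc45a2 stand at like levels in both coloured lines and are low in the TKO and the MITF/TFEB DKO, Met is highest in the TFEB/TFE3 DKO, and Mbp is high in all 4 lines without MITF.

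S100 proteins bind calcium and galectins bind sugars on glycoproteins, and this small group was divided. Of 13 measured genes 5 were called higher in the TFEB/TFE3 DKO (38.5%) and 3 lower (23.1%), beside 3.30% and 3.07% of all genes. S100a6 stood at 140, 140 and 147 CPM against 27.5, 31.2 and 30.7 CPM (log2 fold change 2.22, SE 0.09, adjusted p = 1.0e-15), and S100a4 at 202 ± 29.4 against 72.2 ± 2.88 CPM (1.46), with another gene over its 3′ end on the same strand. Both were called lower with MITF in the other lines, by 1.37 and 2.25 on the log2 scale. By line, both were higher without TFEB than with it, which was not tested. In the TFEB KO, MITF/TFEB DKO and TKO S100a6 averaged 83.6, 181 and 213 CPM and S100a4 139, 476 and 463 CPM. In the parental cells, TFE3 KO and MITF/TFE3 DKO S100a6 averaged 32.8, 20.1 and 25.9 CPM and S100a4 37.8, 33.5 and 91.2 CPM. Lgals9, which is also on the interferon list, differed by 4.90, Lgals7 by 3.17 and Lgals3 by 1.18. S100b, a marker of melanocytes and glia, stood at 444 ± 25.9 against 1388 ± 84.7 CPM (-1.64), and S100a16 and S100a13 were lower by 1.47 and 1.27 on the log2 scale. Clu, a secreted chaperone outside the lists, stood at 175, 138 and 192 CPM against 16.5, 14.5 and 17.4 CPM, and at 26.5 ± 4.79 CPM in the parental cells. Pecam1, an adhesion molecule best known from endothelium, stood at 31.6, 25.5 and 25.5 CPM against 0.0942, 0.482 and 0.0545 CPM and at 8.11 ± 0.437 CPM in the parental cells. It was the one marker of other cell types called, while the glial marker Gfap (3.56 ± 0.476 and 7.52 ± 0.331 CPM, adjusted p = 0.0022) and the muscle marker Des (12.8 ± 1.84 and 20.7 ± 8.22 CPM, adjusted p = 0.042) were lower, under 2-fold. Lyz2, Krt14 and Rbfox3 were under 1 CPM in both lines. With edgeR 4 of the 6 markers were called lower.

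The largest falls were of genes read at a low level in the parental cells as well. Tagln2, an actin-binding protein, had 0 reads in the TFEB/TFE3 DKO and in the parental cells and stood at 33.8, 25.1 and 24.7 CPM in the MITF KO, at least 204-fold lower in the TFEB/TFE3 DKO. Lhfpl4, which anchors inhibitory receptors at synapses, stood at 0, 1.60 and 0 CPM against 25.7, 28.7 and 22.4 CPM, with its reads in the TFEB/TFE3 DKO from replicate 2 alone. The brain matrix gene Bcan (2.82 ± 1.24 and 59.2 ± 4.33 CPM), the sarcomere gene Myom1 (0.915 ± 0.703 and 20.6 ± 3.43 CPM), the calcium store gene Casq2 (1.35 ± 0.0669 and 21.2 ± 2.33 CPM) and Dbh, which makes noradrenaline (0.226 ± 0.391 and 11.2 ± 1.11 CPM), were lower, with log2 fold changes of -4.02, -3.56, -3.23 and -3.35. Ddah2 was lower by 3.40. The small RNA genes Rny3 and Gm24105 were lower by 3.40 and 4.02, and both share their 3′ ends with other annotated genes. Parental levels of these genes lay between 0 and 9.79 CPM, and that of Mbp at 69.2 CPM.

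TFEB and TFE3 are known activators of lysosomal genes. Of 52 measured hydrolases and activators 3 (5.77%) were called lower and 0 higher, beside 3.07% and 3.30% of all genes. At an adjusted p under 0.05 14 (26.9%) were lower and 5 (9.62%) higher, beside 19.1% and 16.1% of all genes, with a median log2 fold change of -0.14. The list of chaperones of the endoplasmic reticulum had a like share lower (26.7%) and a median of -0.16. Lipa, the acid lipase, stood at 66.5 ± 11.1 against 145 ± 3.90 CPM (log2 fold change -1.12, adjusted p = 2.5e-09), and the protease Ctsf and the glycosidase Idua differed by -1.59 and -1.03. Of 46 genes of the proton pump and the lysosomal membrane 2 (4.35%) were called lower and 1 (2.17%) higher. At an adjusted p under 0.05 20 (43.5%) were lower and 3 (6.52%) higher, with a median of -0.25. Hgsnat, a membrane enzyme of heparan sulfate breakdown, stood at 54.6, 67.5 and 64.5 CPM against 410, 447 and 442 CPM (log2 fold change -2.78, SE 0.11, adjusted p = 6.7e-16). The parental level of Hgsnat was 107 ± 8.19 CPM, above that of the TFEB/TFE3 DKO. The ion channel Mcoln2 was lower by 1.19 and the peptide transporter Abcb9 higher by 1.02 on the log2 scale. For the other genes called lower the parental level was near that of the TFEB/TFE3 DKO: the parental, TFEB/TFE3 DKO and MITF KO means were 62.2, 66.5 and 145 CPM for Lipa, 0.788, 0.845 and 4.56 CPM for Ctsf, 4.59, 5.47 and 12.2 CPM for Idua and 7.37, 6.53 and 16.4 CPM for Mcoln2. In the TKO, which lacks TFEB and TFE3 too, Lipa averaged 90.4 CPM, Ctsf 4.44 CPM, Idua 7.34 CPM, Mcoln2 14.3 CPM and Hgsnat 172 CPM. Ctsf, Idua, Mcoln2 and Abcb9 lost their calls with 5 CPM added. Idua came to -0.98 without replicate 3 of the TFEB/TFE3 DKO, and Abcb9 came to between 0.90 and 0.99 without replicate 1 or 3 of the TFEB/TFE3 DKO or replicate 1 or 2 of the MITF KO.

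Autophagy and nutrient sensing gave similar counts. Of 52 autophagy genes 1 (1.92%) was called in each direction, beside 3.07% lower and 3.30% higher of all genes. At an adjusted p under 0.05 14 (26.9%) were lower and 8 (15.4%) higher, beside 19.1% and 16.1% of all genes. Trp53inp2, which recruits autophagy factors, was lower by 1.35 on the log2 scale, and Plekhm1, which joins autophagosomes to lysosomes, was higher by 1.07, or 0.99 without replicate 1 of the TFEB/TFE3 DKO. Of 42 genes of folliculin, the Rag GTPases and mTORC1, the complex that holds TFEB and TFE3 in the cytoplasm, 12 (28.6%) were lower and 1 higher at an adjusted p under 0.05. The 2 called members (4.76%) were the mTORC1 inhibitors Ddit4 (97.2 ± 8.15 and 244 ± 12.5 CPM, log2 fold change -1.32) and Ddit4l (-1.69). The mTOR inhibitor Deptor was lower by 0.94 (adjusted p = 1.0e-06) and Rragd by 0.61 (adjusted p = 0.0057), both under 2-fold. Fnip2 and Rragc did not pass the test (adjusted p = 0.18 and 0.41). Of 35 genes of the ATF4 stress response 5 (14.3%) were called lower and 1 (2.86%) higher, beside 3.07% and 3.30% of all genes. The lower ones were Ddit4 again, the secreted stress signal Gdf15 (-1.61), the mitochondrial folate enzyme Aldh1l2 (-1.52) and the factors Atf5 (-1.28) and Atf3 (-1.03). The higher one was Slc7a11. Atf3 came to -0.98 and -0.97 without replicate 3 of the TFEB/TFE3 DKO or replicate 2 of the MITF KO. Sesn2 was at 6.01 ± 0.645 and 11.3 ± 2.22 CPM (log2 fold change -0.80, adjusted p = 0.0098). Ddit4l, Gdf15 and Atf3 lost their calls with 5 CPM added.

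E-box sequences, to which the 3 factors bind, were counted in the same promoter windows. CACGTG was present on either strand in 1188 of 11659 promoters (10.2%), in 29 of 386 genes called higher (7.51%) and in 32 of 363 called lower (8.82%), while 24 of 97 lysosomal genes held it (24.7%). TCACGTG, which contains CACGTG, was present in 5.86% of all promoters, 4.40% of those called higher and 4.68% of those called lower. TCATGTG, a form that MITF also binds, was present in 2.43%, 1.81% and 3.58%. The 3 stretches below show the longer form in genes on both sides of the comparison, with the motif or its reverse complement in capitals, in the direction of the gene.
Nlrc5, chr8:95160944-95160972: cactttgaatcCACGTGAtttctcggcag
Fbln1, chr15:85090058-85090086: tagacacttttCACGTGActttctgcctg
Aldh1l2, chr10:83370036-83370064: cctgcaccaggTCACGTGtgcttaggggc
The stretches of Nlrc5 and Fbln1, both called higher, lie on the plus strand of GRCm39, and that of Aldh1l2, called lower, on the minus strand.

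Energy metabolism differed by many small steps. No gene of the respiratory chain and ATP synthase was called among 77 measured, while 3.30% of all genes were called higher and 3.07% lower. At an adjusted p under 0.05 42 (54.5%) were lower in the TFEB/TFE3 DKO and 0 were higher, beside 19.1% and 16.1% of all genes. The median log2 fold change was -0.31. Complex I held 22 of these among 37 measured, complex III 5 of 9, complex IV 7 of 11 and ATP synthase 6 of 15. The member furthest from 0 was Cox7a2l, which joins respiratory complexes (137 ± 13.4 and 272 ± 26.9 CPM, log2 fold change -0.98), in a stretch of chromosome 17 where the median of 100 neighbouring genes lay 0.40 below that of all genes. Glycolysis and the hypoxia response leaned the other way, with 16 of 39 genes (41.0%) higher and 4 lower at an adjusted p under 0.05. The lactate exporter Slc16a3 stood at 195 ± 27.6 against 73.1 ± 12.4 CPM (log2 fold change 1.41) and the hexokinase Hk2 at 396 ± 21.1 against 182 ± 21.4 CPM (1.13). The phosphofructokinase gene Pfkp stood at 27.7, 36.2 and 31.1 CPM against 133, 143 and 142 CPM (-2.11, adjusted p = 5.3e-13), and the oxygen sensor Egln3 differed by -1.49 and lost its call with 5 CPM added. Nampt, which makes the precursor of NAD, stood at 110 ± 7.35 against 41.1 ± 3.80 CPM (1.41, adjusted p = 5.0e-11), in a stretch of chromosome 12 whose neighbours had a median 0.49 above that of all genes. Nampt was the only gene called among 19 of the PGC-1 list (5.26% higher, beside 3.30% of all genes). At an adjusted p under 0.05 2 of the list (10.5%) were higher and 2 (10.5%) lower, beside 16.1% and 19.1% of all genes. Ppargc1a, the activator of mitochondrial biogenesis, stood at 323 ± 14.7 and 332 ± 19.9 CPM (adjusted p = 0.84), and at 143 ± 13.3 CPM in the parental cells.

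Lipid lists held calls at shares no higher than those of all genes, which were 3.30% higher and 3.07% lower. Of 40 genes of sterol and fatty acid synthesis 1 (2.50%) was called higher, Me1, which makes NADPH (140 ± 16.9 and 33.3 ± 3.74 CPM, log2 fold change 2.03), and 1 (2.50%) lower, Thrsp. Scd1 stood at 28.0 ± 2.77 and 21.9 ± 1.51 CPM (adjusted p = 0.055). Of 35 genes of fatty acid uptake and oxidation 1 (2.86%) was called, Acsl6, which was lower (0.152 ± 0.180 and 2.54 ± 0.870 CPM). At an adjusted p under 0.05 11 (31.4%) were lower and 1 (2.86%) higher, beside 19.1% and 16.1% of all genes. The transporter Slc27a1 did not pass (adjusted p = 0.14). Thrsp and Acsl6 lost their calls with 5 CPM added. The glutathione, thioredoxin and NRF2 list had 4 of 49 genes (8.16%) called higher and 1 (2.04%) lower. At an adjusted p under 0.05 20 (40.8%) were higher and 7 (14.3%) lower, beside 16.1% and 19.1% of all genes. Its called members include Gsta4, which detoxifies lipid aldehydes (7.83 ± 1.61 and 0.143 ± 0.163 CPM, log2 fold change 2.94), and the ferritin chain Fth1 (2626 ± 85.8 and 969 ± 26.9 CPM, log2 fold change 1.44, adjusted p = 2.4e-11). Gstm7 was at 1.57 ± 0.336 and 5.24 ± 0.731 CPM, and lost its call with 5 CPM added.

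Proliferation genes differed by small amounts. Of 61 genes of DNA replication 2 (3.28%) were called higher, as against 3.30% of all genes, and 26 (42.6%) were higher at an adjusted p under 0.05 against 1 (1.64%) lower, beside 16.1% and 19.1% of all genes, with a median log2 fold change of 0.30. Mcm10, which starts replication forks, stood at 77.8, 68.2 and 75.5 CPM against 22.4 ± 2.67 CPM (log2 fold change 1.68, SE 0.11, adjusted p = 1.3e-11). Rrm2, a subunit of ribonucleotide reductase, stood at 331 ± 9.16 against 155 ± 4.68 CPM (1.10), in a stretch of chromosome 12 whose neighbours had a median 0.33 above that of all genes. The helicase genes Mcm2, Mcm3, Mcm5 and Mcm7 were higher by 0.43 to 0.68 with adjusted p from 1.5e-06 to 3.1e-05, while Mcm4 and Mcm6 varied more between libraries and did not pass (adjusted p = 0.11 and 0.23). Of 64 genes of mitosis 0 were called, beside 3.30% higher and 3.07% lower of all genes. At an adjusted p under 0.05 17 (26.6%) were higher and 3 (4.69%) lower. The furthest from 0, Ndc80, a kinetochore subunit, was lower by 0.70 and lies in a chromosome 17 stretch with a median of -0.37. Among 25 genes of the G1 phase 4 were higher and 7 (28.0%) lower at an adjusted p under 0.05, and 1 was called, the inhibitor Cdkn1c (1.49 ± 0.389 and 5.76 ± 2.15 CPM), which was under 2-fold with 5 CPM added. Cdk2, whose promoter lies beside Pmel, stood at 190 ± 47.8 and 132 ± 16.6 CPM (log2 fold change 0.50, adjusted p = 0.047). Of 16 genes of the BCL2 family the death gene Bbc3 was the one called (6.25%), lower by 1.14 on the log2 scale, and it lost its call with 5 CPM added.

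Matrix and adhesion genes were called in both directions, 5 higher and 5 lower of 47 measured (10.6% each, beside 3.30% and 3.07% of all genes). At an adjusted p under 0.05 9 (19.1%) were higher and 17 (36.2%) lower, and with edgeR 11 were called lower. Fbln1, a matrix glycoprotein, stood at 107 ± 12.2 CPM against 26.2, 33.9 and 29.9 CPM (log2 fold change 1.80, adjusted p = 8.6e-11), the integrin chains Itgb3 at 45.3 ± 6.51 against 12.3 ± 1.20 CPM (1.79) and Itga5 at 6.82 ± 1.17 against 1.27 ± 0.179 CPM (1.78), and the secreted ligand Spp1 at 6.18 ± 2.39 against 0.202 ± 0.0695 CPM (2.52). The laminin receptor chain Itga6 stood at 82.6 ± 3.03 against 198 ± 8.06 CPM (-1.25), and the proteases Adamts1 and Mmp11 were lower by 1.19 and 1.33 on the log2 scale. Among 30 contractile genes 3 (10.0%) were called lower and 1 (3.33%) higher, and 14 (46.7%) were lower at an adjusted p under 0.05, beside 19.1% of all genes. Besides Tagln2, the lower ones were the light chain Myl6 (-1.12) and Acta2, at 3 reads or fewer in each library of the TFEB/TFE3 DKO, while the light chain Myl9 was higher by 1.79. Of 34 genes of the TGF-beta and BMP response 3 (8.82%) were called lower and 0 higher, beside 3.07% and 3.30% of all genes. The called genes were the antagonist Fstl3 (-1.24) and the ligands Tgfb1 (-1.15) and Tgfb2 (-1.04, or -0.95 without replicate 3 of the TFEB/TFE3 DKO). Of 25 WNT genes the factors Tcf7l1 (1.34) and Tcf7 (1.13, or 0.94 without replicate 2 of the TFEB/TFE3 DKO) were called higher. Axin2, a common target of the pathway, was higher by 0.68 (adjusted p = 0.0019). Itga5, Mmp11, Myl9, Acta2, Tgfb1, Tgfb2 and Tcf7 lost their calls with 5 CPM added.

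No gene was called among 79 cytosolic ribosomal proteins or among 30 chaperones and unfolded protein response genes of the endoplasmic reticulum. Of all genes 3.30% were called higher and 3.07% lower. In the first list 12 (15.2%) were higher and 5 (6.33%) lower at an adjusted p under 0.05, beside 16.1% and 19.1% of all genes. Its member furthest from 0, Rpl7a, stood at 345 ± 247 and 168 ± 68.8 CPM (adjusted p = 0.13). In the second, 2 (6.67%) were higher and 8 (26.7%) lower, and the oxidase Ero1a was furthest from 0, higher by 0.84.

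**Figure D4:**
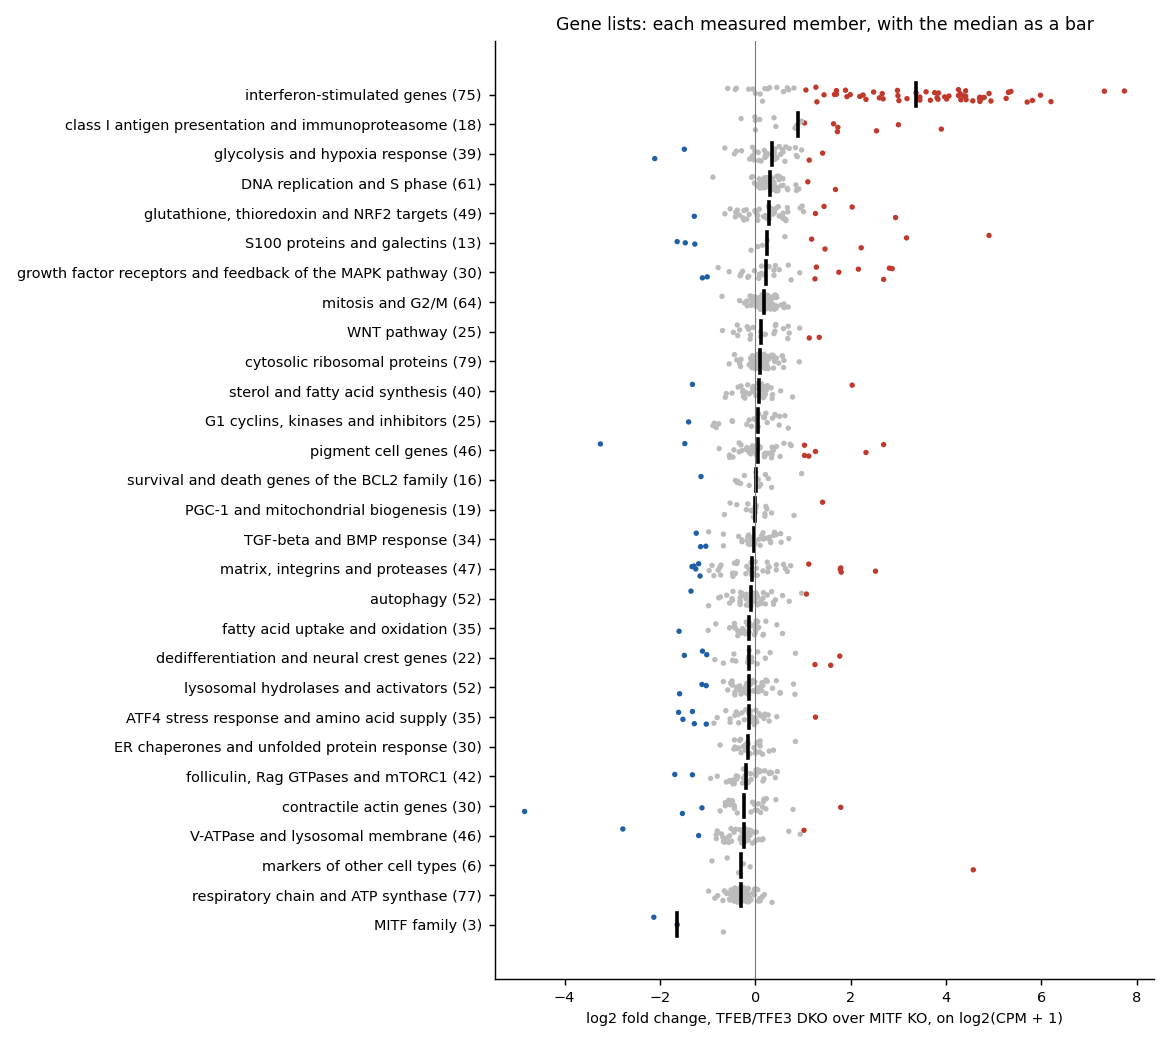
The log2 fold change of every measured member of the gene lists, ordered by median (black bar), with genes called higher in red and lower in blue; the number measured stands in brackets. The interferon-stimulated genes have a median of 3.37 and 59 red points, class I presentation follows at 0.89, and the respiratory chain lies tightly around -0.31 with no called gene.

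The parental cells were nearer to the TFEB/TFE3 DKO than to the MITF KO for most called genes. For 240 of the 396 genes called higher (60.6%) the parental mean was within 2-fold of the TFEB/TFE3 DKO and at least 2-fold from the MITF KO, and for 29 (7.32%) the reverse held. Of the 369 genes called lower these counts were 259 (70.2%) and 11 (2.98%). Another 94 and 97 genes had a parental level within 2-fold of both lines. On a scale where the MITF KO is 0 and the TFEB/TFE3 DKO is 1, the median parental position was 0.88 for the genes called higher and 0.89 for those called lower, with quartiles of 0.61 and 1.11 and of 0.73 and 1.04. S100a6, Clu and Pecam1 were among those that differed from the parental level in the TFEB/TFE3 DKO, by 2.08, 2.62 and 1.64 on the log2 scale.

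**Figure D5:**
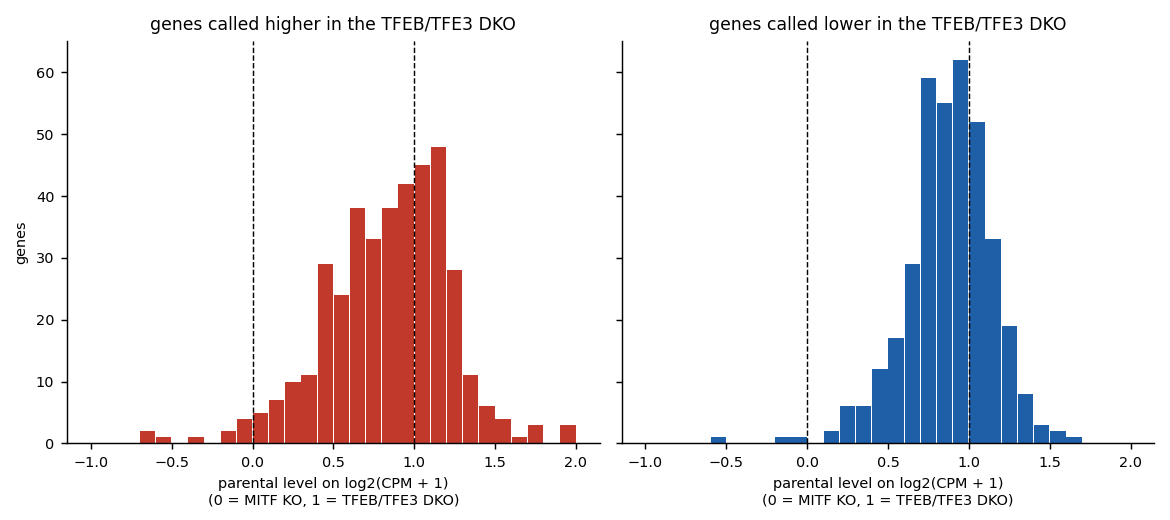
Number of called genes by the position of their parental mean between the MITF KO (0) and the TFEB/TFE3 DKO (1) on the log2(CPM + 1) scale, with the end bins holding all genes beyond them. Both histograms peak near 1, with medians of 0.88 for genes called higher and 0.89 for genes called lower.

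Some stretches of the genome were shifted as a whole. On chromosome 12, 347 of 407 genes lay in windows of 100 neighbouring genes with a median log2 fold change 0.30 to 0.53 above that of all genes, on chromosome 2 154 of 937 genes in windows 0.30 to 0.39 above it, on chromosome 17 191 of 580 genes in windows 0.31 to 0.40 below it, and on chromosome 10 11 genes in windows 0.32 below it. These stretches held 6.03% of the genes with a position and 6.94% of the called ones. Among the genes named above, Ifih1, Rsad2, Ifi27, Itga6, Eif2ak2, Myom1 and Tfeb lie in them too. Ifi27 differed by 3.67. Without the genes in these stretches 365 genes were called higher and 348 lower.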

How the data were processed

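RNA of 8 mouse cell lines with 3 libraries each was read by QuantSeq Forward 3′-end sequencing, in which reads do not grow with gene length. The submitters' processing notes name FastQC 0.11.9, Trim Galore 0.6.5, cutadapt 2.10, STAR 2.7.8a and edgeR, with the build mm39. The counting tool, its use of strand, the annotation and the filter on low genes are not given in the sources used here. The deposited signal, as made by the authors, is CPM scaled with TMM factors, for 12010 genes and 24 libraries of 18300902 to 26667877 reads. All values gave whole reads, within 0.1 of a read. Depth limits genes of few reads most, and counting error alone is covered by the floor of 3 reads.

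Log2(CPM + 1) was fitted with limma 3.58.1 in R 4.3.3, with cell line as the only term, a variance trend and 16 residual degrees of freedom. A call needed a fold change of 2 and an unadjusted p under 0.05. The comparison among the other 6 lines came from the same fit. Fits were tested on simulated data. Alternatives were edgeR 4.0.16 (quasi-likelihood) on the reads, pseudocounts of 0.25 and 5 CPM, a filter at a mean of 5 CPM, median-of-ratios scaling, adjusted p, a replicate block, the 6 libraries alone, removal of shifted stretches (windows of 100 genes with a median at least 0.3 from that of all genes) and each library left out.

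The text draws on 186 genes. Of these, 123 follow a rule. The rules took the MITF family and the 10 largest rises and falls among genes of at least 5 CPM in the higher line. They also took up to 5 called members of each of 29 lists (or the furthest from 0) and genes the study discusses. The last rule took genes at 3 reads or fewer in every library of a line and at a mean of at least 10 CPM in the other. The remaining 63 genes were chosen after their values were seen, as was the response element core. The comparison, its lists and its tests were chosen with earlier results of these data known. Positions and promoters came from GRCm39 with GENCODE vM39 and were found for 11659 genes. Of 184 named genes with a position, the last 500 bases of 8 overlap another gene on the same strand and of 49 on the opposite strand, Isg15 and Usp18 among them. Python 3.11.15 with pandas 2.3.3 and matplotlib 3.10.9 made the summaries and plots. Some of the named genes are not reported here.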

Additional observations from a re-analysis of the deposited data

Results flagged for a closer look

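Of the 186 named genes, 85 differed at least 2-fold, at an adjusted p under 0.05 (limma), between the comparison of the TFEB/TFE3 DKO with the MITF KO and that of the other lines with and without MITF. The named genes were in part chosen for a large difference in the first comparison, which favours such a result. The 29 given here were called opposite ways in the 2 comparisons, were called in the other lines alone, or differed by at least 4 on the log2 scale. The first value is the log2 fold change of the TFEB/TFE3 DKO over the MITF KO and the second that of the other lines.

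Most are interferon genes with a large first and a small second value: Apol9b (7.74 and 2.05), Apol9a (7.32 and 1.95), Ifi203 (6.71 and 0.51), Mndal (6.51 and 0.88), Usp18 (6.20 and 1.01), Rtp4 (5.98 and 1.05), Ifi44 (5.81 and 0.83), Isg15 (5.70 and 0.70), Gbp7 (5.36 and 0.56) and Igtp (5.31 and -0.04). Further ones are Iigp1 (5.31 and 0.42), Oas2 (5.26 and 1.18), Ifit3 (4.94 and 0.60), Rsad2 (4.80 and 0.42), Ifit1 (4.71 and 0.42), Ddx60 (4.54 and 0.41), Cxcl10 (4.41 and -0.31) and Gm4951 (3.75 and -0.39). The adjusted p of the difference between the comparisons was 5.8e-12 or smaller for each of these. For Apol9a, Ifi44, Oas2, Ddx60 and Gm4951, which had at most 3 reads in each MITF KO library, the first value depends on the CPM added.

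Opposite calls were made for the calcium-binding genes S100a6 (2.22 and -1.37, adjusted p of the difference 2.7e-18) and S100a4 (1.46 and -2.25, 4.4e-18), the chaperone Clu (3.29 and -1.14, 1.5e-15), Capn6 (1.13 and -2.75, 4.1e-15) and Kctd12 (-1.21 and 1.30, 5.6e-09). S100a6 and S100a4 were higher in each line without TFEB than in each line with it. Capn6 and Kctd12 were under 2-fold in the TFEB/TFE3 DKO against the MITF KO with 5 CPM added. Lgals3 differed most in the other sense (1.18 and 6.18, adjusted p = 4.0e-19), with means of 0.0143 CPM in the TKO and 0.190 CPM in the MITF/TFEB DKO.

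Calls in the other lines alone were made for the pigment genes Tyr (0.34 and 2.33, adjusted p = 3.4e-09), Slc45a2 (0.20 and 2.17, 3.5e-13), Pmel (0.19 and 1.73, 2.6e-09) and Trpm1 (0.02 and 1.49, 2.6e-05), and for Scd1 (0.33 and 1.89, 4.5e-08).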

How the results depend on the processing

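The main counts of genes called higher and lower were 396 and 369, with 166 and 212 called the same way in the other lines. With edgeR's quasi-likelihood test they were 602 and 651 (287 and 435 shared), and all 765 genes were called again. With 0.25 CPM added they were 544 and 601 (252 and 390), with 5 CPM added 228 and 146 (92 and 82), and with a mean of at least 5 CPM required 266 and 218. The genes called lower with a parental level at that of the TFEB/TFE3 DKO numbered 403 with 0.25 CPM and 152 with the filter, against 259. Leaving out 1 library gave 398 to 409 higher and 374 to 417 lower, with 161 to 170 and 206 to 231 shared. Median-of-ratios scaling, the 6 libraries alone and removal of shifted stretches stayed within 1.5 times of the main counts. Requiring the adjusted p left the counts at 396 and 369, which was fixed in advance, as all 765 calls had already passed it. Same-numbered libraries of the 2 lines deviated with correlations of -0.273, -0.605 and -0.281, so that the numbers do not pair them, and the fit with the replicate block called 397 and 369 (166 and 212 shared). With edgeR and the block, added after seeing the data, the counts were 595 and 654 (285 and 433). Of the 138 named genes that were called, 102 kept their call in all 12 settings run on them, and no named gene reversed. Counts of interferon genes called higher ran from 54 to 62 of 75.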

Other observations

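Among the genes called in opposite directions in the 2 comparisons are members of families outside the lists. Sp110, a nuclear body gene induced by interferon, was higher in the TFEB/TFE3 DKO than in the MITF KO by 2.42 on the log2 scale and lower with MITF in the other lines by 1.15 (adjusted p of the difference 3.8e-12, limma). Slfn8, of the Schlafen family, differed by 2.12 and -1.53 (4.1e-11). The histone genes H2ac11 (-1.16 and 1.24, 2.9e-09) and H3c3 (-1.02 and 1.47, 3.5e-09) and the dehydrogenase Dhrs2 (-1.14 and 2.02, 4.8e-11) differed the other way. These genes were chosen after their values were seen.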
